A study of Mus musculus with 8 samples.

Results

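Primordial germ cell (PGC) specification factors are the regulators that set the germline apart in the early embryo. Of these, 4 (Prdm1, Prdm14, Tfap2c and Dppa3) were followed here in fetal germ cells of control and Snf5 conditional knockout (CKO) embryos. The members were chosen by name. All 4 were listed in both expression tables, at 1 row each, among 24243 gene names in the female table and 23906 in the male table.

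The study sequenced RNA of germ cells from gonads at embryonic day 15.5 (E15.5), sorted by an Oct4-EGFP transgene that every group carried, to ask how loss of Snf5 (also called Smarcb1), a core component of SWI/SNF remodelers of chromatin, alters transcription in the germline. Of the 8 libraries, 4 came from each sex, with 2 from controls and 2 from Snf5 CKO, and cells were pooled over embryos for most of them, though not for a male Snf5 CKO library made from a single embryo. The Snf5 CKO cells were Snf5fx/Δ with TNAP-Cre, a Cre inserted into Alpl that acts while PGCs develop. The study estimated incomplete recombination in both sexes and still found SNF5 protein in some Snf5 CKO germ cells. The Snf5 CKO values are thus not those of cells that all lack Snf5. The controls were a mixture of Snf5fx/+, either alone or with TNAP-Cre, and Snf5fx/Δ, so that some control cells also had the Cre or 1 deleted allele. The labels give the strain as C57BL/6, whereas the methods of the study describe a mixed background.

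BLIMP1, the product of Prdm1, is a transcriptional repressor that shuts down the somatic program in nascent PGCs, and it acts with PRDM14, which supports the return of pluripotency genes and the loss of DNA methylation, and with AP-2γ, the product of Tfap2c. DPPA3, also called Stella, marks newly specified PGCs and later protects DNA methylation in the egg and early embryo. Before E15.5, female germ cells have entered meiosis and male germ cells have stopped dividing.

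Levels are given in FPKM, fragments scaled by transcript length and by mapped fragments, so that levels of different genes can be set beside each other. Smarcb1 was at 23.4 and 22.3 FPKM in the female controls and at 4.24 and 2.47 FPKM in female Snf5 CKO, and at 141 and 167 FPKM in the male controls and 8.73 and 10.1 FPKM in male Snf5 CKO. Every Snf5 CKO library was below both controls of its sex, although only exon 1 was floxed, so that a level over the whole gene checks the deletion only in part. Of the 5 germ cell markers listed, Ddx4 and Dazl were at 203 FPKM or more in each of the 8 libraries. Mael fell in Snf5 CKO of both sexes, with log2 fold changes of -1.94 ± 0.25 in females and -2.97 ± 0.26 in males (SE), and Dnd1 and Pou5f1 were between 4.94 and 16.7 FPKM in the female controls. The Y-linked gene Ddx3y has a value of 0 in each female library and values from 5.48 to 8.79 FPKM in the male ones.

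In female germ cells, the specification factors had lower levels in the controls than in Snf5 CKO. Against 17.3% of the 11520 loci tested, 4 of 4 members were called higher in Snf5 CKO, where a call needs an adjusted p under 0.05 and a log2 fold change of 1 or more in size; 38.9% of loci were called in either direction. Prdm14 entered the test only through its Snf5 CKO libraries, since its control mean was under the filter of 1 FPKM, so the count is a description only. The log2 fold changes use FPKM + 1, and so come out too small for genes with low values.

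Prdm1 lies at chr10:44437174-44458748 of the mm10 genome in the female table. It was at 2.39 and 2.18 FPKM in the female controls and at 14.3 and 10.2 FPKM in female Snf5 CKO. Both Snf5 CKO libraries were above both controls, an order seen at 36.4% of tested loci, the lower of them by 4.29-fold over the higher control, and replicate 1 was the higher library in each group. On the log2 scale it rose by 1.998 ± 0.22 (SE; adjusted p = 4.3e-04 from limma), the smallest change of the members in females, and 5.48% of tested loci had a larger one; without moderation of variances the adjusted p was 0.0538. The confidence intervals that Cufflinks gave for each library were wide, reaching up to 5.01 FPKM in a control and down to 1.81 FPKM in a Snf5 CKO library, and thus overlapped between the groups.

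The region just upstream of Prdm1 is shown because Prdm1 is the member whose start site is held in the RefSeq promoter set used here (1 of 4 members matched). The stretch of 250 bases at chr10:44458749-44458998 (GRCm38.p6, minus strand, written from 5′ to 3′) ends at the base before the annotated start, which is also the end of the Prdm1 locus in the female table.
Prdm1: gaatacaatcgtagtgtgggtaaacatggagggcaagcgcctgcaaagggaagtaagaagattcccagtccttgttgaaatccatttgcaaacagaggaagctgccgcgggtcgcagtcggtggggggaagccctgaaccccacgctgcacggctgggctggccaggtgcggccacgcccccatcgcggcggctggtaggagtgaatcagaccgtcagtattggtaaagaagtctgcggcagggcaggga
The window of 300 bases that holds this stretch and the first 50 bases of the transcript was searched on both strands for the octamer ATGCAAAT, the AP-2 motif GCCNNNGGC, the E-box CACGTG, the GC box GGGCGG and a PRDM1-like motif AGNGAAAG, and none of these letters was found in it, so no base is in capitals. Among all 32851 promoter windows of this length, 1.74% hold the octamer, 16.6% the AP-2 motif, 7.15% the E-box, 35.7% the GC box and 8.63% the PRDM1-like motif. The Prdm1 window has a GC content of 59.7%, and the median of all windows is 52.7%.

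Prdm14, at chr1:13113428-13127163, was at 0.205 and 0.236 FPKM in the female controls and at 10.1 and 9.32 FPKM in female Snf5 CKO. It was the lowest member in every female library, though in Snf5 CKO its mean differed from that of Prdm1 by less than the SD of Prdm1, and its groups were far apart, with the lower Snf5 CKO library 39.4-fold above the higher control. The log2 fold change of 3.13 ± 0.19 (SE; adjusted p = 9.7e-05 from limma) was 4.93 with a pseudocount of 0.1 in place of 1, as the control values lie below the pseudocount. A control level this low can rest on a small number of fragments, and the Cufflinks interval of a control reached 0.624 FPKM, above the lowest bound of 0.233 FPKM in a Snf5 CKO library.

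Tfap2c, at chr2:172545694-172558621, was at 1.89 and 1.29 FPKM in the female controls and at 67.0 and 62.0 FPKM in female Snf5 CKO. The replicates of each group were close to each other compared with the gap between the groups, and the lower Snf5 CKO library was 32.7-fold above the higher control. Its log2 fold change was 4.67 ± 0.20 (SE; adjusted p = 9.6e-05 from limma), and 14 of 11520 tested loci had a larger one. The Cufflinks intervals were also apart, with an upper bound of 4.15 FPKM in the controls and a lower bound of 8.49 FPKM in Snf5 CKO.

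Dppa3, at chr6:122626424-122630271, was the most abundant member in all 8 libraries. It was at 41.2 and 61.3 FPKM in the female controls and at 1406 and 1632 FPKM in female Snf5 CKO, levels above those of 99.6% and 99.5% of tested loci. The groups did not overlap, and the lower Snf5 CKO library was 22.9-fold above the higher control. Its log2 fold change of 4.89 ± 0.26 (SE; adjusted p = 9.6e-05 from limma) was the largest of the members on this scale, and 7 of 11520 tested loci had a larger one. With a pseudocount of 0.1 it was 4.91, below Tfap2c at 5.28 and Prdm14 at 4.93, and as a ratio of means Dppa3 was 29.7-fold higher, Tfap2c 40.5-fold and Prdm14 43.9-fold. The Cufflinks bounds of the controls reached 114 FPKM and those of Snf5 CKO began at 297 FPKM.

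**Figure D1:**
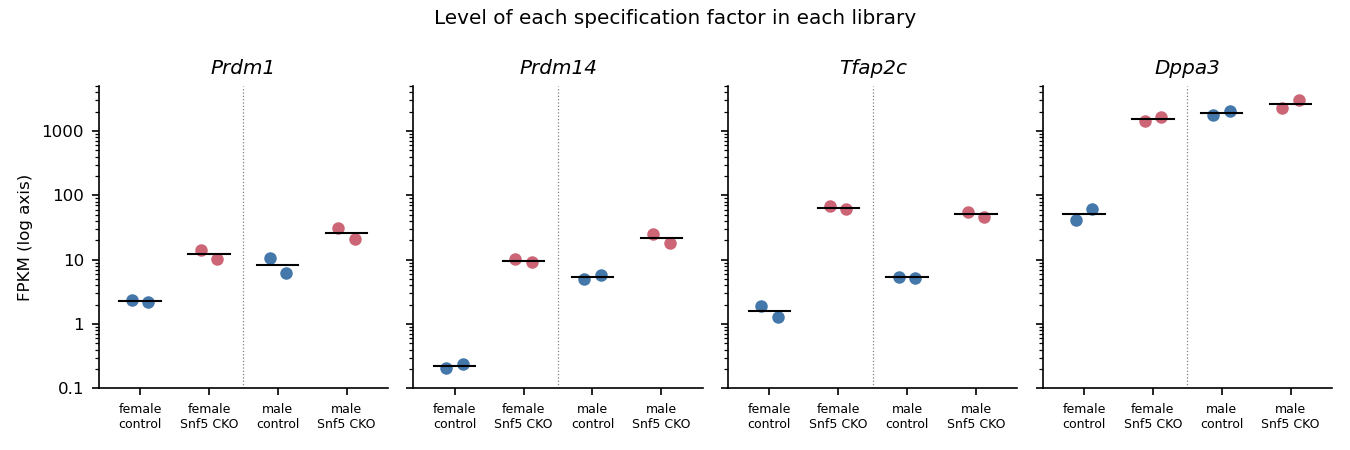
FPKM of each specification factor on a log axis in the 8 libraries, with controls in blue, Snf5 CKO in red and the mean of each pair as a black line; the sexes come from tables that were normalized separately. In females each member is higher in both Snf5 CKO libraries, and in males Dppa3 moves little, from 1754 and 2025 FPKM to 2276 and 2979 FPKM.

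In male germ cells, Prdm1, Prdm14 and Tfap2c were higher in Snf5 CKO, by smaller folds than the female values, and Dppa3 was high in both groups. Called higher were 3 of 4 members, against 14.4% of the 12269 loci tested, of which 31.8% were called in either direction.

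Prdm1 was at 10.6 and 6.24 FPKM in the male controls and at 30.8 and 21.0 FPKM in male Snf5 CKO. Replicate 1 was again the higher library in both groups, and the groups did not overlap, the lower Snf5 CKO library being 1.99-fold above the higher control. It rose by 1.53 ± 0.32 on the log2 scale (SE; adjusted p = 0.0156 from limma), with 1.46 within replicate 1 and 1.60 within replicate 2. The male table gives the Prdm1 locus a longer extent, chr10:44437174-44534865. The call was lost without moderation of variances (adjusted p = 0.151 from limma's unmoderated fit) and on the linear FPKM scale (adjusted p = 0.0695 from limma), and the adjusted p ranged from 1.0e-04 to 0.151 over all alternatives.

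Prdm14 was at 5.03 and 5.73 FPKM in the male controls and at 25.1 and 18.0 FPKM in male Snf5 CKO. Both Snf5 CKO libraries were at least 3.15-fold above the higher control. Prdm14 rose by 1.81 ± 0.23 on the log2 scale (SE; adjusted p = 0.00433 from limma), and without moderation the adjusted p was 0.0756. Over all alternatives it ranged from 3.8e-04 to 0.0756.

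Tfap2c was at 5.46 and 5.19 FPKM in the male controls and at 55.0 and 46.7 FPKM in male Snf5 CKO. It had the largest fold of the members in males, with the lower Snf5 CKO library 8.56-fold above the higher control. The log2 fold change was 3.03 ± 0.18 (SE; adjusted p = 0.00212 from limma), and 73 of 12269 tested loci had a larger one. Its Cufflinks intervals were apart in males too, with bounds of 10.9 FPKM in the controls and 13.3 FPKM in Snf5 CKO.

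Dppa3 was at 1754 and 2025 FPKM in the male controls and at 2276 and 2979 FPKM in male Snf5 CKO. Both Snf5 CKO libraries were above both controls, an order that 34.6% of tested loci share, and the lower of them was 1.12-fold above the higher control. The log2 fold change was 0.47 ± 0.42 (SE; adjusted p = 0.405 from limma) and was not called, and 29.7% of tested loci had a larger one. When the fit held replicate number as a block, the SE was 0.06 and the adjusted p 0.00164 from limma, but the fold remained under the threshold. Within replicate 1 the log2 difference was 0.38 and within replicate 2 it was 0.56.

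**Figure D2:**
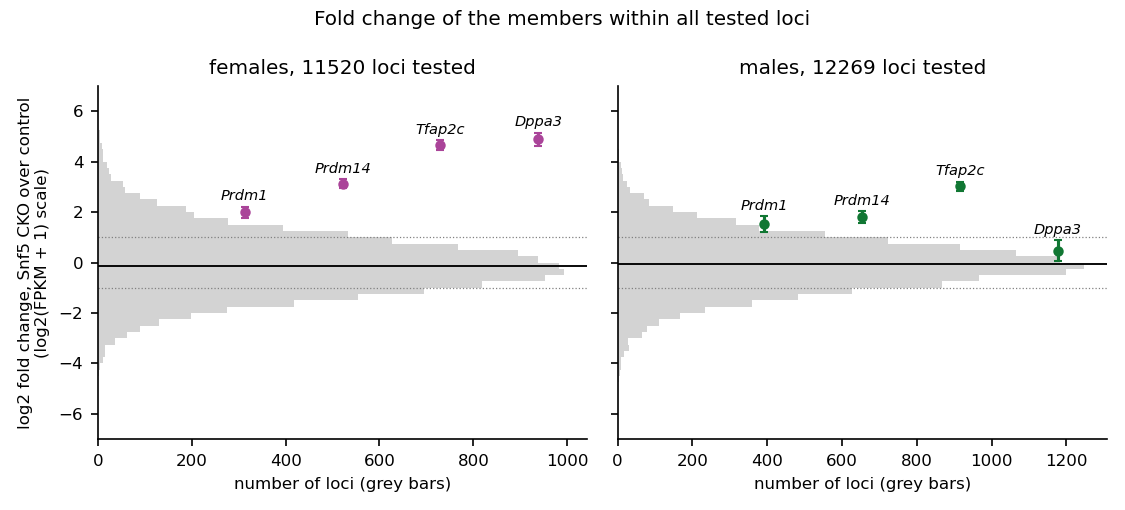
Log2 fold change of Snf5 CKO over control for the members (points, bars for the SE) beside the histogram of all tested loci in grey, with a black line at the median of all loci and dotted lines at -1 and 1. The points are spread sideways for legibility only; the female members range from 1.998 to 4.89, and the male ones from 0.47 to 3.03.

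Over all tested loci, log2 fold changes had a median of -0.13 in females and -0.07 in males, against which the members are to be read. Rescaling by the median of ratios moved these medians by 0.15 in both sexes, moved the share of called loci that were higher from 44.5% to 52.7% in females and from 45.1% to 54.4% in males, and left each member's call as it was. Rescaling each male library to a sum of 1000000 moved the male median to -0.26 and this share to 33.8%, and the same 3 members stayed called, with Tfap2c at 2.90.

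Set side by side, the control levels of the members were higher in males than in females, by 3.68-fold for Prdm1, 24.4-fold for Prdm14, 3.35-fold for Tfap2c and 36.9-fold for Dppa3, taken as ratios of group means. In Snf5 CKO the same ratios were 2.11, 2.23, 0.788 and 1.73, so the sexes were closer to each other. The tables of the sexes were normalized separately, and neither the difference in level nor that in fold change between the sexes was tested.

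The order of the levels changed with genotype in the same way in both sexes. In the controls Dppa3 was followed by Prdm1, and Tfap2c stood at 0.794 and 0.590 times Prdm1 in the female libraries and at 0.518 and 0.832 times Prdm1 in the male ones. In Snf5 CKO Tfap2c came second, at 4.69 and 6.06 times Prdm1 in females and 1.78 and 2.22 times Prdm1 in males. Prdm14 and Tfap2c changed places between the male control libraries, and their group means, 5.38 ± 0.490 FPKM (SD, n = 2) and 5.33 ± 0.193 FPKM (SD, n = 2), differed by less than their spread. Among Snf5 CKO males, Prdm1 at 25.9 ± 6.93 FPKM (SD, n = 2) and Prdm14 at 21.6 ± 5.02 FPKM (SD, n = 2) differed by less than their spread as well, although Prdm1 was the higher in each library.

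Some markers of other cells of the gonad also differed between control and Snf5 CKO, in both directions. Their part in the results above was not tested. Of the 8 supporting-cell markers (Sertoli and pre-granulosa cells), all were found, and their summed level was 6.18 and 8.05 FPKM in the female controls and 19.9 and 18.7 FPKM in female Snf5 CKO, where Amhr2 was the most abundant. In males the sum was 37.9 and 29.6 FPKM in the controls and 147 and 196 FPKM in Snf5 CKO, with Amh the most abundant and Foxl2 listed at 0 in control replicate 1. The sums were thus higher in Snf5 CKO of both sexes, in the direction of the members. In males the 6 markers that could be tested, Sox9, Amh, Gata4, Wt1, Nr5a1 and Amhr2, were each called higher (against 14.4% of all loci), with log2 fold changes from 1.62 to 2.54, and Wnt4, too low to test, was lower in Snf5 CKO. In females Amhr2 alone was called (against 17.3%). Foxl2, Wnt4, Gata4, Wt1 and Nr5a1 were tested too, and for each both Snf5 CKO libraries were above both controls (against 36.4% of all loci). All but Gata4 passed the filter only through the Snf5 CKO libraries, so their values are a description only. With Gata4 included, the log2 fold changes were from 0.73 to 0.85, under the threshold, with adjusted p under 0.05 from limma. Amh was lower in Snf5 CKO and Sox9 overlapped between the groups, and both were too low to test. In bulk samples such as these, fewer or more cells of a type and less or more RNA per cell cannot be told apart.

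The 5 Leydig cell markers summed to 4.74 and 4.89 FPKM in the female controls and 12.0 and 11.8 FPKM in female Snf5 CKO, mostly from a locus that merges Insl3 with Jak3, with Cyp11a1 and Cyp17a1 listed at 0 in control replicate 2. In males they summed to 85.7 and 58.2 FPKM in the controls and 19.2 and 15.1 FPKM in Snf5 CKO, again led by the locus of Insl3. The sum of the 5 stromal markers, led by Col1a1 in 7 of 8 libraries, was lower in Snf5 CKO, at 5.88 and 2.11 FPKM against 0.916 and 1.54 FPKM in females and at 11.5 and 6.80 FPKM against 2.54 and 1.86 FPKM in males; in females Pdgfra, Tcf21 and Dcn overlapped between the groups. The sum of the blood and endothelial list (6 loci found for its 8 genes in females and 7 in males) overlapped between the groups, at 23.8 and 98.7 FPKM against 27.4 and 83.9 FPKM in females and at 60.5 and 99.7 FPKM against 60.0 and 64.4 FPKM in males, led by Hbb-bs except in female Snf5 CKO replicate 1, where Pecam1 led; Cdh5 or Ptprc was listed at 0 in some libraries. Within it Pecam1 was called higher in females (2.23 ± 0.20, SE), and Cdh5 and Kdr were lower in both Snf5 CKO libraries of each sex, too low to test. The germ cell list summed to 1817 and 1840 FPKM in the female controls and 1519 and 1485 FPKM in female Snf5 CKO, and to 3122 and 3234 FPKM in the male controls and 2165 and 2025 FPKM in male Snf5 CKO.

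**Figure D3:**
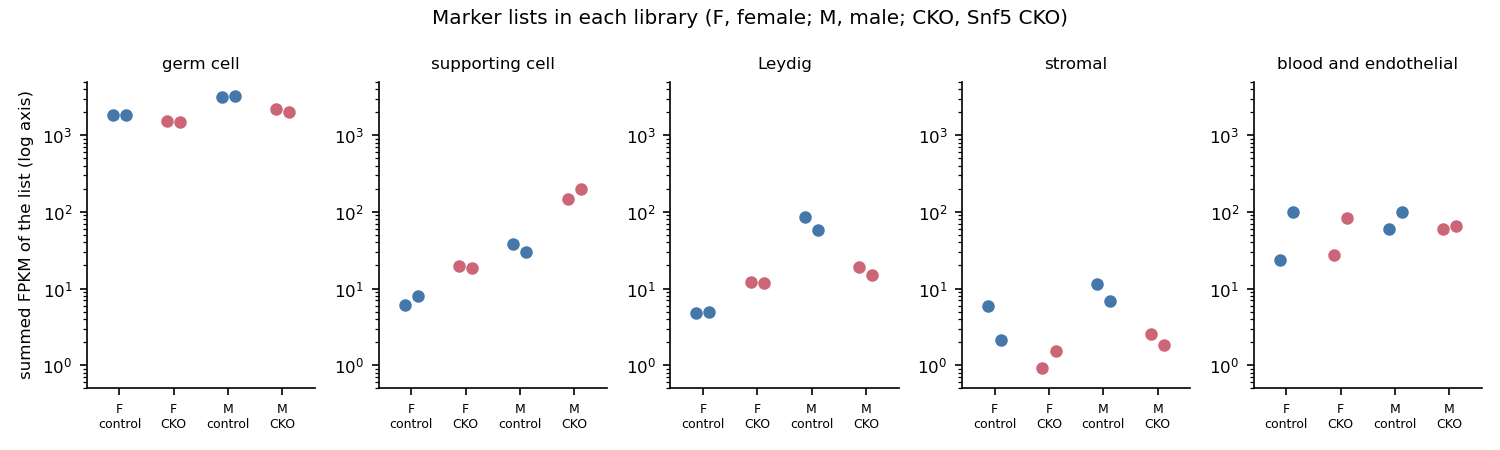
Summed FPKM of 5 marker lists on a log axis in the 8 libraries, with controls in blue and Snf5 CKO in red. The supporting-cell sum is higher in Snf5 CKO of both sexes, while the germ cell sum is 1485 FPKM or more in every library.

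The germ cells were sorted by a transgene under control sequences of Pou5f1 (Oct4), and Pou5f1 itself differed between the female groups. It was at 8.63 and 16.7 FPKM in the female controls and at 295 and 333 FPKM in female Snf5 CKO, with a log2 fold change of 4.59 ± 0.29 (SE; adjusted p = 9.9e-05 from limma). In males the controls had 399 and 436 FPKM and the Snf5 CKO libraries 620 and 648 FPKM, without a call (0.60 ± 0.24, SE, on the log2 scale; adjusted p = 0.0944 from limma). Dppa3 stood at 3.66 to 4.91 times Pou5f1 in the female libraries and 3.67 to 4.64 times in the male ones. Whether the gate took a different share of cells in Snf5 CKO was not tested.

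To place the members among genes tied to them, 5 lists were described, without a test of any list. The PGC activated list holds 14 genes that are turned on or kept on as PGCs form, and all of them were called higher in female Snf5 CKO, against 17.3% of all tested loci; 3 of them passed the filter only through the Snf5 CKO libraries. Their median log2 fold change was 3.54, beside -0.13 for all loci. The largest values were those of Tcl1 (5.23 ± 0.20, SE), a coactivator of the kinase AKT, the interferon-induced membrane protein gene Ifitm3 (5.12 ± 0.32, SE), the pluripotency factor Nanog (4.77 ± 0.20, SE) and Pou5f1. Tcl1, for example, was at 1.63 and 2.35 FPKM in the female controls and at 101 and 121 FPKM in female Snf5 CKO.

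In males the same list divided. Called higher were 5 genes, against 14.4% of all loci, and 3 were called lower, against 17.5%, while 6 were not called, and the median log2 fold change was 0.61 beside -0.07. Klf2 (log2 fold change 3.64 ± 0.17, SE), a pluripotency factor, Ifitm3 (3.32 ± 0.44, SE) and Nanog (2.18 ± 0.16, SE) were among the higher genes. Nanos3, an RNA-binding protein needed for survival of migrating PGCs, was at 130 and 205 FPKM in the male controls and at 24.0 and 53.5 FPKM in male Snf5 CKO, and fell by 2.16 ± 0.44 on the log2 scale (SE; adjusted p = 0.0149 from limma). Dnd1, its partner in the control of germ cell mRNAs, and Utf1, a chromatin-bound factor of undifferentiated cells, fell by 1.78 ± 0.33 and 1.20 ± 0.29 on the log2 scale (SE). The list also holds Alpl, which carries the TNAP-Cre insertion in all Snf5 CKO cells and in part of the controls.

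The PGC repressed list holds 12 genes of the somatic mesoderm program and of DNA and histone methylation that BLIMP1 and PRDM14 are known to keep down. Of these, 4 passed the filter in females and 6 in males. In females 2 were called higher (against 17.3% of all loci) and none lower (against 21.6%), the DNA methyltransferase gene Dnmt3b (2.12 ± 0.21, SE) and the growth factor gene Fgf8 (1.90 ± 0.19, SE), with a median of 1.19; Fgf8 passed only through the Snf5 CKO libraries. Dnmt3b was at 1.96 and 1.30 FPKM in the female controls and at 10.5 and 10.1 FPKM in female Snf5 CKO, and thus was higher in the same libraries as Prdm1 and Prdm14. In males 4 were called higher (against 14.4% of all loci), Dnmt3b (2.105 ± 0.20, SE), the homeobox gene Evx1 (2.01 ± 0.17, SE), Fgf8 (1.58 ± 0.32, SE) and the T-box gene Tbx6 (1.40 ± 0.26, SE), and 1 was called lower (against 17.5%), Snai1, a repressor of epithelial genes, which fell by 1.32 ± 0.19 on the log2 scale (SE). Evx1 and Tbx6 passed only through the Snf5 CKO libraries and Snai1 only through the controls, so the male count is a description only. The male median was 1.49. T, the classic mesoderm gene that BLIMP1 represses, was under the filter in both sexes, and was named after its values were seen. It was at 0.0486 and 0.0128 FPKM in the female controls and 0.800 and 0.727 FPKM in female Snf5 CKO, and at 0.954 and 1.65 FPKM in the male controls and 0.0946 and 0.139 FPKM in male Snf5 CKO.

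The partner list holds 13 genes whose proteins act with the specification factors or on the chromatin they use. In females 3 of 12 tested genes were called higher (against 17.3% of all loci) and none lower (against 21.6%), with a median log2 fold change of 0.38, and in males 4 of 13 were called higher (against 14.4%) and none lower (against 17.5%), with a median of 0.39. Kctd15, an inhibitor of AP-2 factors, had the largest change in both sexes. It was at 0.509 and 0.757 FPKM in the female controls and 7.41 and 7.68 FPKM in female Snf5 CKO (2.39 ± 0.19, SE), and at 0.516 and 1.07 FPKM in the male controls and 13.7 and 14.7 FPKM in male Snf5 CKO (3.10 ± 0.23, SE). Like Prdm14 in females, it passed the filter in each sex only through the Snf5 CKO libraries. Prmt5, the arginine methyltransferase that binds BLIMP1, and its cofactor Wdr77 were called higher in females (1.55 ± 0.17 and 1.09 ± 0.16, SE). In males the calls were those of Uhrf1 (1.38 ± 0.21, SE), which brings the maintenance methyltransferase to DNA, Ezh2 (1.31 ± 0.16, SE), the enzyme of Polycomb repressive complex 2, and the deacetylase gene Hdac1 (1.10 ± 0.17, SE).

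Of the 17 genes of the PRDM and AP-2 families other than the members, 9 could be tested in females and 7 in males, and 4 were called lower in females (against 21.6% of all loci; 3 with median-of-ratios rescaling, where Prdm16 is not called) and 2 in males (against 17.5%). Of those called lower, Mecom and Prdm16 in females and Prdm16 in males passed the filter only through the controls. The median log2 fold change was -0.58 in females and -0.24 in males. Prdm9, the histone methyltransferase that places meiotic recombination sites, was at 223 and 153 FPKM in the female controls and at 9.99 and 11.5 FPKM in female Snf5 CKO, and fell by 3.99 ± 0.22 on the log2 scale (SE; adjusted p = 9.6e-05 from limma). It thus went the opposite way to Prdm1 and Prdm14 in the same libraries. Mecom, Prdm4 and Prdm16 fell by 1.82 ± 0.22, 1.40 ± 0.23 and 1.01 ± 0.19 on the log2 scale in females (SE). In males Prdm16 and Prdm2 fell by 2.11 ± 0.17 and 1.24 ± 0.32 (SE). The AP-2 genes other than Tfap2c were all under the filter, with Tfap2d listed at 0 in all female libraries and Tfap2b in all male ones.

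The inducing signal list holds 11 genes of the BMP and WNT signals that start PGC specification. Called higher were 2 of 9 tested genes in females (against 17.3% of all loci) and 3 of 8 in males (against 14.4%). Called lower were 3 in females (against 21.6%; 2 with median-of-ratios rescaling) and 1 in males (against 17.5%). In females Wnt3 passed the filter only through the Snf5 CKO libraries and Bmpr2, called lower, only through the controls. The median log2 fold changes were 0.04 and 0.32. Wnt3, the ligand that makes the epiblast competent for the germline, was at 0.403 and 0.389 FPKM in the female controls and 7.83 and 7.33 FPKM in female Snf5 CKO (2.62 ± 0.18, SE), and at 9.20 and 10.7 FPKM in the male controls and 21.9 and 30.5 FPKM in male Snf5 CKO (1.30 ± 0.23, SE). The receptor gene Acvr1 was also called higher in females (2.12 ± 0.28, SE), and the receptor gene Bmpr1a (1.27 ± 0.22, SE) and the signal transducer Smad1 (1.29 ± 0.20, SE) in males. The ligand gene Bmp4 fell by 1.19 ± 0.25 on the log2 scale in males, and Bmp2 and Smad5 fell by 1.18 ± 0.21 and 1.33 ± 0.19 in females (SE).

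**Figure D4:**
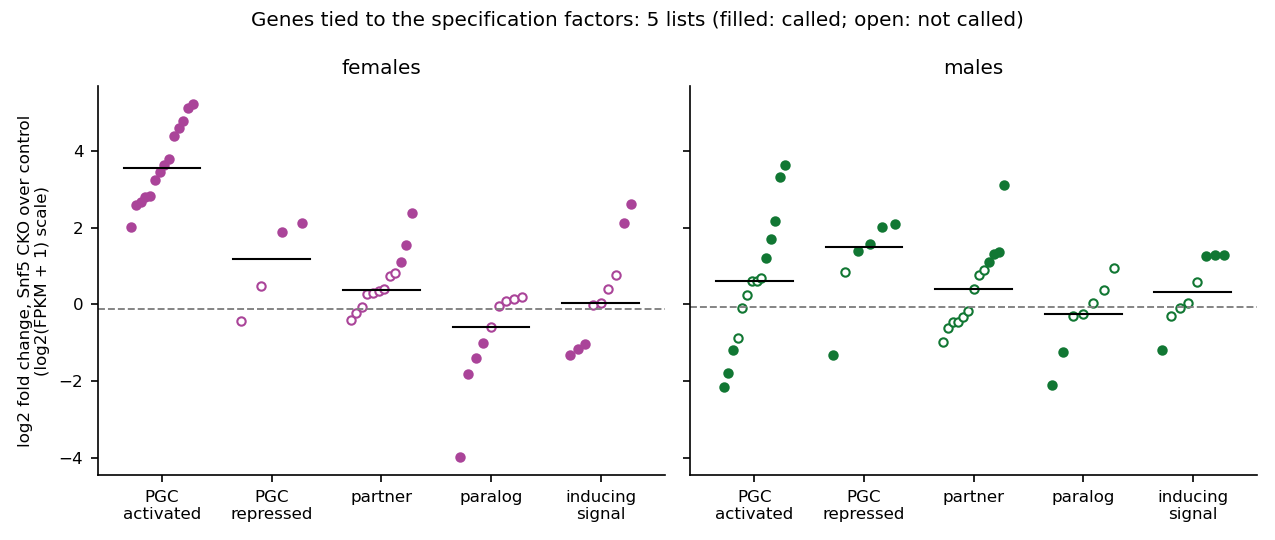
Log2 fold change of Snf5 CKO over control for each tested gene of 5 lists (filled points called, open points not called), with a black line at the median of the list and a dashed line at the median of all tested loci. The PGC activated list ranges from 2.02 to 5.23 in females and lies on both sides of 0 in males.

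The nearest named loci of the members differed in how they moved. Dppa3 lies between Gdf3, a TGF-β family gene, 16.4 kb away, and Nanog, 77.2 kb away, and both were called higher in both sexes. In females Gdf3 and Nanog passed the filter only through the Snf5 CKO libraries, so their female calls are a description only. Gdf3 was at 0.235 and 0.740 FPKM in the female controls and 29.98 and 38.7 FPKM in female Snf5 CKO (log2 fold change 4.58 ± 0.25, SE), and at 8.05 and 8.72 FPKM in the male controls and 40.4 and 41.6 FPKM in male Snf5 CKO (2.16 ± 0.17, SE). In males, therefore, the neighbors on both sides were called while Dppa3 was not. The nearest named loci of Prdm1 were Atg5, an autophagy gene, which was not called in either sex, the microRNA gene Mir1929, which has the bounds of Atg5 and is listed at 0 in all libraries, and the peptidase gene Prep, 608 kb away in the female table, with 1.15 ± 0.21 in females and 1.05 ± 0.25 in males (SE). Ncoa2, a nuclear receptor coactivator 11.9 kb from Prdm14, was not called in females (0.69 ± 0.21, SE) and was called higher in males (1.43 ± 0.30, SE), and the transporter gene Slco5a1 on the other side was too low to test. Beside Tfap2c, Fam209 was too low to test, and Bmp7 was called higher in females (1.26 ± 0.21, SE) and not called in males (-0.78 ± 0.18, SE).

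The genes with the pattern most like each member were found by the root mean square difference of log2(FPKM + 1) over 8 libraries, each table centered on its own mean, among 11088 genes tested in both sexes. Nearest to Prdm1 were Txnrd1, Mcm2 and Zdhhc2, at 0.0847, 0.103 and 0.104. Txnrd1, a thioredoxin reductase merged with another gene in the female table, was at 6.44 and 7.24 FPKM in the female controls and 32.8 and 26.9 FPKM in female Snf5 CKO, and at 9.11 and 5.61 FPKM in the male controls and 24.9 and 17.8 FPKM in male Snf5 CKO. It thus shared with Prdm1 the higher male value of replicate 1. Nearest to Prdm14 were Ttyh1, Mtap and Slc25a13, at 0.134, 0.152 and 0.155.

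Nearest to Tfap2c were Dhrs7, Mup6 and Trp53, at 0.173, 0.292 and 0.312. Dhrs7, a short-chain dehydrogenase gene, was at 2.05 and 2.19 FPKM in the female controls and 65.3 and 67.3 FPKM in female Snf5 CKO, and at 8.34 and 9.36 FPKM in the male controls and 86.7 and 90.7 FPKM in male Snf5 CKO. Its log2 fold changes were 4.43 in females and 3.19 in males, beside 4.67 and 3.03 for Tfap2c. Nearest to Dppa3 were Tcl1, Pou5f1 and Gtsf1l, at 0.159, 0.164 and 0.256, 2 of which are in the PGC activated list. No member was among the 3 nearest of another, and Prdm1 and Prdm14, the closest pair of members, were 0.470 apart.

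**Figure D5:**
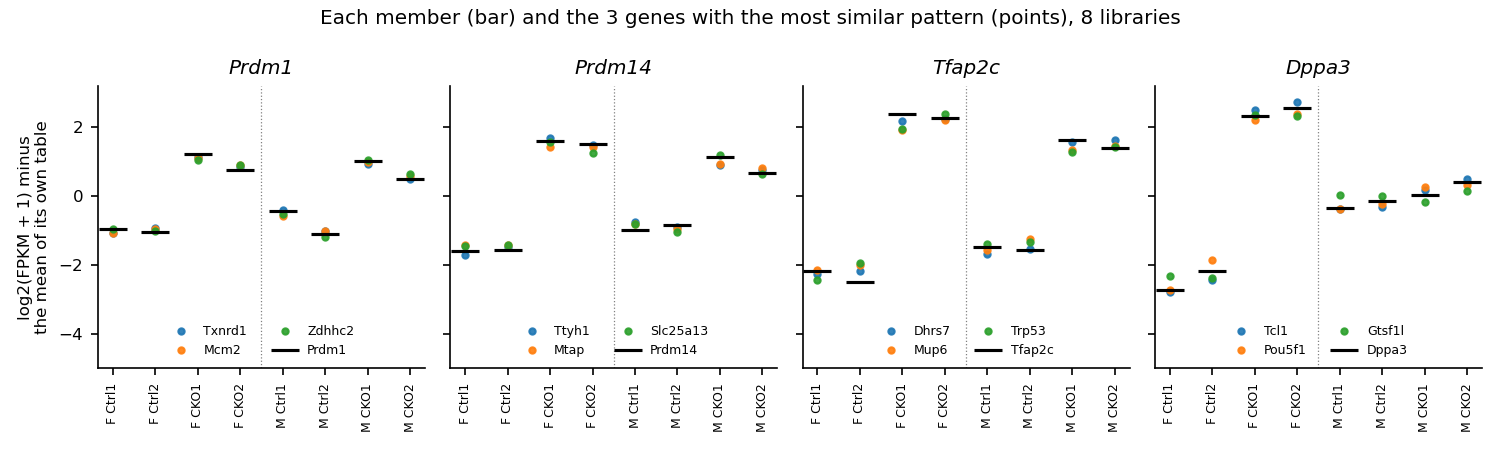
log2(FPKM + 1) of each member (black bars) and of the 3 genes with the most similar pattern (colored points) in the 8 libraries, each minus its mean over the 4 libraries of its own table (F, female; M, male). Of the members, Dppa3 has the smallest step from control to Snf5 CKO in males, with 0.47. The points follow the step of the bars, except that Gtsf1l, shown with Dppa3, has a male log2 fold change of -0.016.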

How the data were processed

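Germ cells of 4 groups were measured by RNA-Seq in 8 libraries. The authors mapped paired-end reads and quantified them on the mm10 genome, with a separate table for each sex; the submitters' processing notes name TopHat2 2.2.1 and Cuffdiff 2.1.1, and the methods of the study name other versions. The deposited tables hold FPKM values, with their confidence bounds, and not counts. The way library size was normalized is not given in the sources used here. Ratios of values under 0.1 FPKM between libraries did not settle relative depth: a depth of 1.90 or of 0.948 times that of replicate 1 fits male control replicate 2 nearly equally well, and either puts few low loci on a step (10.7% and 10.4%), so the depth of a library and the fragments behind a value are not known.

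The sexes were fitted separately on log2(FPKM + 1) by limma 3.58.1 (R 4.3.3; lmFit, then eBayes with trend), for named loci whose mean over 4 libraries was 1 FPKM or more; a gene with several loci was represented by the locus with the highest mean, and a locus that merges genes was tested once. The p-values were adjusted by Benjamini-Hochberg over all 11520 female and 12269 male loci. A call needed an adjusted p under 0.05 and an absolute log2 difference of 1 or more. The fit was tested on simulated data. The replicates are described as biological duplicates, and whether they came from separate litters is not given. The p-values and SEs rest on the spread between 2 libraries a group, combined by eBayes with that of other loci. The median prior degrees of freedom were 4.75 in females and 3.05 in males, beside 2 residual ones, so much of the spread used is borrowed. Tables and plots were made in Python 3.11.15 (pandas 2.3.3, matplotlib 3.10.9). Starts are counted from 1.

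The members and lists were chosen with earlier results of these data known. Named are the members, Smarcb1, Pou5f1, up to 4 called genes of each list with the largest absolute log2 fold change in a sex, every gene called against most of its list, the 3 genes most like each member and the nearest named locus on each side of it. Lists of markers were those of germ cells, supporting cells, Leydig cells, stromal cells, and blood and endothelial cells. Replicate numbers may pair the libraries, though no label says so outright. The male columns call the replicates experiments, and the labels name the raw files of replicates 1 and 2 in different styles in both sexes. The main fit left this pairing out, and the replicate block took it in. Across loci, which are not independent, the replicate difference among controls correlated with that among Snf5 CKO libraries at r = 0.500 in females and 0.607 in males. Alternatives tried were: pseudocount 0.1, all loci unfiltered, a stricter filter (mean of 5 FPKM), rescaling to a sum of 1000000 or by the median of ratios, the replicate block, eBayes without trend, no moderation, linear FPKM, and each library left out.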

Additional observations from a re-analysis of the deposited data

Results flagged for a closer look

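Of the 44 list genes tested in both sexes, 3 were called in opposite directions (against 2.06% of 11088 genes). For each, both Snf5 CKO libraries were above both controls in females and below both in males. The difference between the sexes was not tested. Nanos3 passed the filter in females only through the Snf5 CKO libraries, so the count is a description only. The log2 fold change of Nanos3 was 2.82 in females and -2.16 in males, that of Dnd1 was 4.39 and -1.78, and that of Utf1 was 2.79 and -1.20. Dnd1 was at 4.94 and 8.81 FPKM in the female controls and 141 and 179 FPKM in female Snf5 CKO, and at 469 and 729 FPKM in the male controls and 140 and 204 FPKM in male Snf5 CKO. None of the 4 specification factors moved in opposite directions.

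Loci without a gene name were not tested, but some lie beside the members. Within 100 kb of a member, 12 of 17 such loci in females and 25 of 30 in males had both Snf5 CKO libraries above both controls, against 10.1% and 15.0% of all unnamed loci with a value above 0. This count was made after the values were seen. In males, 12 of the loci have the same bounds as a member's own locus (11 that of Prdm1), so they are not independent of it. The male count also holds 7 loci near Dppa3, which itself was not called in males. Some of these lie nearer to Nanog than to Dppa3, such as one 68.7 kb from Dppa3, where Nanog begins 77.2 kb away. Most levels are low: an unnamed locus 19.0 kb from Prdm14 is listed at 0 in both female controls and was at 2.18 and 2.47 FPKM in female Snf5 CKO, and another 23.6 kb from Prdm1 was at 0 and 0.0376 FPKM in the female controls and at 1.10 and 0.735 FPKM in female Snf5 CKO.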

How the results depend on the processing

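Recomputing under 13 alternatives gave 221 values, with the 40 list counts only under rescaling by the median of ratios and the replicate block. None reversed, and 210 kept their direction and call, or for counts stayed within 1.5 times. Changing the filter, the replicate block, the trend or moderation does not alter a member's log2 fold change, so its direction could not reverse there. Without moderation, which leaves 2 residual degrees of freedom, Prdm1 was no longer called in females (1.998, adjusted p = 0.0538 from limma) or males (1.53, adjusted p = 0.151), nor was Prdm14 in males (1.81, adjusted p = 0.0756), leaving 1 male member called; calls over all loci fell to 870 higher and 1054 lower in females and 278 and 369 in males. On the linear scale the male difference of Prdm1, 17.5 FPKM, was not called (adjusted p = 0.0695); the cause was not tested. With a minimum mean of 5 FPKM, 8755 male loci were tested and 1347 were called lower, beside 2141 of 12269 in the main fit. Prdm14 gave no value in females with this filter.

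The replicate block, which takes the libraries as paired, changed no call of a member (4 higher in females, 3 in males) and gave 2008 higher and 2497 lower calls in females and 1848 and 2216 in males. Leaving out each library in turn, with the lone library assumed to vary like the other group, kept 4 to 4 members called in females and 3 to 3 in males. The log2 fold change ranged from 1.77 to 2.22 for Prdm1, 3.08 to 3.18 for Prdm14, 4.50 to 4.84 for Tfap2c and 4.60 to 5.17 for Dppa3 in females, and from 1.20 to 1.87, 1.58 to 2.04, 2.92 to 3.15 and 0.27 to 0.66 in males. Over all loci, 1953 to 2075 were higher and 2314 to 2746 lower in females, and 1621 to 1864 and 1993 to 2267 in males. With 2 libraries a group and no counts, small changes and levels near 0 cannot be resolved.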
